A study of Homo sapiens with 2 samples.

Results

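The miR-23, miR-24 and miR-27 miRNAs come from a pair of paralogous clusters, 1 on chromosome 9 (MIR23B, MIR27B and MIR24-1) and 1 on chromosome 19 (MIR23A, MIR27A and MIR24-2). The members described here are 10 mature arms taken by name, out of 859 mature miRNAs listed in the count table, and all 10 names were listed. The 6 hairpins give 11 distinct arms, and the arm outside the 10 names, miR-27a-5p, was also listed and is given beside them as the partner of miR-27a-3p. Small RNAs were sequenced from A549, a human lung adenocarcinoma cell line grown in DMEM with fetal calf serum, after 24 h under normoxia (20% O2) or hypoxia (1.2% O2). There was 1 library per condition and thus no replicate check of any difference. The table held 6449337 counts in normoxia and 13115226 in hypoxia, of which 4514818 and 8600160 fell on mature miRNAs. Levels are given as CPM, the counts in every 1000000 that fell on mature miRNAs, with exact Clopper-Pearson 95% intervals that cover counting error only.

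A miRNA hairpin is cut into a duplex of a 5p and a 3p arm, of which usually a single arm, the guide, is kept in Argonaute and recognises mRNAs through its seed, bases 2 to 8. In both clusters the 3p arms are the known guides. miR-23 is known to repress glutaminase, miR-27 to repress PPARG and adipogenesis, and miR-24 to repress cell cycle and DNA repair genes. Members of both clusters are among the miRNAs that have been studied in cancer cells kept at low oxygen.

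The mature sequences are shown because the paralogs are so alike that the names can hardly be told apart. They were taken from RefSeq (GRCh38.p14), 5′ to 3′, with the seed in capitals, and all 11 arms matched by name. The 3p guides were

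hsa-miR-23b-3p: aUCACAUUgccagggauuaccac

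hsa-miR-23a-3p: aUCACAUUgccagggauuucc

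hsa-miR-27b-3p: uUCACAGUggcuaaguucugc

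hsa-miR-27a-3p: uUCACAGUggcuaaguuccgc

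hsa-miR-24-3p: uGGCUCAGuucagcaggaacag

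and the 5p arms were

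hsa-miR-23b-5p: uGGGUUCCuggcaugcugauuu

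hsa-miR-23a-5p: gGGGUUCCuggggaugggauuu

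hsa-miR-27b-5p: aGAGCUUAgcugauuggugaac

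hsa-miR-27a-5p: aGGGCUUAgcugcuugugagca

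hsa-miR-24-1-5p: uGCCUACUgagcugauaucagu

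hsa-miR-24-2-5p: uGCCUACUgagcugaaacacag

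Counted from 1 at the 5′-end, miR-23b-3p and miR-23a-3p differed over their 21 shared bases by A19U alone, and miR-27b-3p and miR-27a-3p by U19C alone. The first 18 bases were identical in each pair. miR-24-3p was the same sequence from both hairpins and was listed once, at the chromosome 9 position. The 5p arms were more distinct, with an edit distance of 5 between miR-23b-5p and miR-23a-5p, 5 between miR-27b-5p and miR-27a-5p, and 4 between miR-24-1-5p and miR-24-2-5p. The 5p arms of miR-23 shared a seed, as did those of miR-24, whereas the seeds of miR-27b-5p (GAGCUUA) and miR-27a-5p (GGGCUUA) differed.

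In GRCh38, the chromosome 9 hairpins lie on the plus strand within 881 bases, with MIR23B at chr9:95085208-95085304, MIR27B at chr9:95085445-95085541 and MIR24-1 at chr9:95086021-95086088. GENCODE version 29 places all 3 inside the protein-coding gene C9orf3 in the same direction, MIR23B and MIR27B in introns and MIR24-1 within an exon of a nonsense-mediated decay transcript. On the opposite strand, MIR24-1 is covered by MIR3074. The chromosome 19 hairpins lie on the minus strand within 373 bases, with MIR23A at chr19:13836587-13836659, MIR27A at chr19:13836440-13836517 and MIR24-2 at chr19:13836287-13836359. They lie within an exon of the antisense gene AC020916.1, transcribed in the same direction.

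The family was abundant in A549, and nearly all of its counts lay on the chromosome 9 guides miR-23b-3p and miR-27b-3p. In normoxia the 10 members took 3.14% of the counts on mature miRNAs (3.12% to 3.15%), and in hypoxia they took 3.65% (3.63% to 3.66%). miR-23b-3p alone gave 69.9% of these counts in normoxia and 74.9% in hypoxia, and together with miR-27b-3p 96.9% and 96.5%.

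miR-23b-3p stood at 21910 CPM in normoxia (98921 counts, interval 21776 to 22046 CPM) and 27306 CPM in hypoxia (234835 counts, 27197 to 27415). It ranked 3 among the mature miRNAs in both libraries, between miR-22-3p (105496 counts) and miR-31-5p (91197 counts) in normoxia. miR-27b-3p stood at 8483 CPM in normoxia (38301 counts, 8399 to 8568) and 7884 CPM in hypoxia (67803 counts, 7825 to 7943), ranks 8 and 10. The other 3p guides were far lower. miR-24-3p had 477 counts in normoxia (106 CPM, 96.4 to 116) and 1171 in hypoxia (136 CPM, 128 to 144.2), and miR-23a-3p had 384 (85.1 CPM, 76.8 to 94.0) and 1005 (117 CPM, 109.7 to 124). Their neighbours in rank in normoxia were miR-500b (480 counts) and miR-378i (473 counts) for miR-24-3p, and miR-93-3p (389 counts) and miR-18a-3p (381 counts) for miR-23a-3p. miR-27a-3p was the lowest 3p arm, with 60 counts (13.3 CPM, 10.1 to 17.1) and 97 counts (11.3 CPM, 9.15 to 13.8).

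The 5p arms covered a narrower range apart from miR-23a-5p. miR-27b-5p was the highest at 495 CPM in normoxia (475 to 516) and 655 in hypoxia (638 to 672), followed by miR-27a-5p at 183 (170 to 195) and 269 (258 to 280) and miR-24-2-5p at 155 (143 to 167) and 200 (191 to 210). miR-24-1-5p was at 96.6 CPM (87.7 to 106) and 93.8 (87.5 to 100.5), and miR-23b-5p at 21.3 (17.2 to 25.97) and 56.5 (51.6 to 61.8). miR-23a-5p had 1 count in normoxia, below the 3 counts that a count of 0 allows (0.664 CPM), and 10 counts in hypoxia (1.16 CPM, 0.558 to 2.14), above that limit (0.349 CPM). In normoxia the intervals of miR-24-3p and miR-24-1-5p overlapped, as did those of miR-24-1-5p and miR-23a-3p, so the order of these neighbours is not given by the counts. In hypoxia the same arms had separate intervals, in the order miR-24-3p, miR-23a-3p, miR-24-1-5p.

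**Figure D1:**
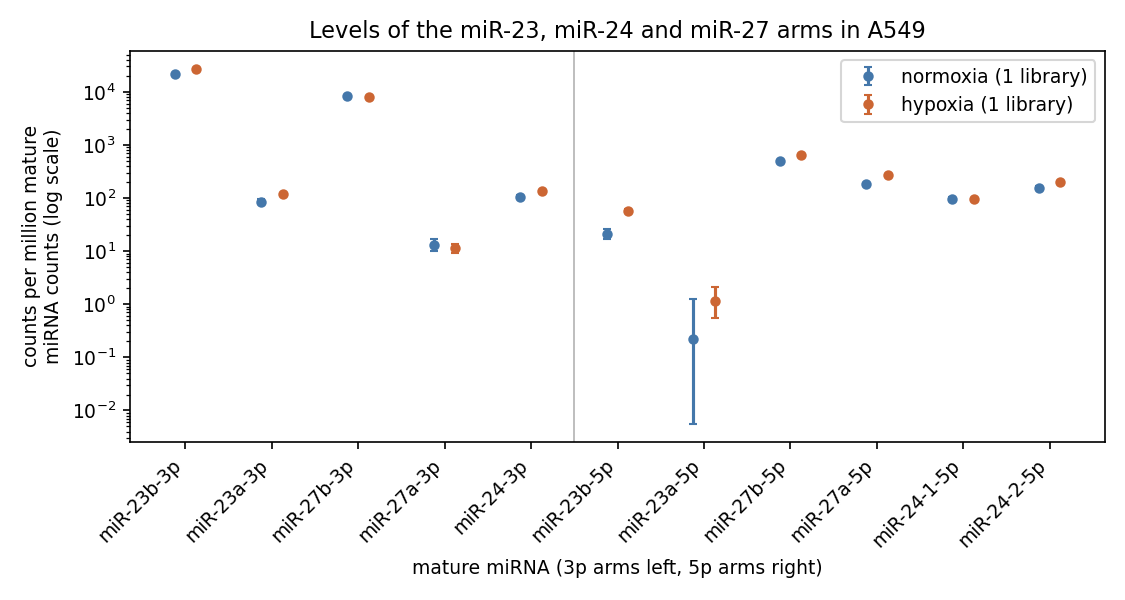
Level of each arm in CPM of mature miRNA counts (log scale) in the normoxia and hypoxia libraries, 1 library each, with exact 95% counting intervals, 3p arms to the left of the line and 5p arms to the right. miR-23b-3p and miR-27b-3p lie far above their chromosome 19 paralogs, while the 5p arms of miR-27, and those of miR-24, lie much closer to their own paralogs.

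The paralogs were split very unevenly on the 3p side, and far less so on the 5p side of miR-27 and miR-24. Within the normoxia library there were 258 counts of miR-23b-3p per count of miR-23a-3p (interval 233 to 286), and 234 (220 to 249) in hypoxia. For miR-27b-3p over miR-27a-3p the ratio was 638 (496 to 837) in normoxia and 699 (573 to 862) in hypoxia. From the other arm of the same hairpins, miR-27b-5p exceeded miR-27a-5p only 2.71-fold (2.50 to 2.94) and 2.44-fold (2.32 to 2.56). The direction was the opposite for miR-24, where the chromosome 19 arm miR-24-2-5p exceeded miR-24-1-5p 1.60-fold (1.42 to 1.81) in normoxia and 2.13-fold (1.96 to 2.32) in hypoxia. For miR-23b-5p over miR-23a-5p the ratio was 96.0, with a counting interval of 16.8 to 3831 in normoxia, and 48.6 (26.2 to 102) in hypoxia.

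Summed over miR-23 and miR-27, the chromosome 9 guides exceeded the chromosome 19 guides 309-fold in normoxia (282 to 340) and 275-fold in hypoxia (259 to 292). Summed over the 3 hairpins of each cluster, which adds miR-24 and so is a set unlike that of the guides, the 5p arms differed 1.82-fold (1.71 to 1.94) and 1.71-fold (1.65 to 1.78). These ratios do not depend on the scaling between libraries. The 3p paralogs are separated in the table by a single base near the 3′-end and their counts are uncertain as separate measurements, since the sources used here do not say how a read that fits both names, or is too short to reach base 19, was counted.

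The same uneven split was looked for in other near-identical miRNAs. Of pairs of mature miRNAs that were at most 1 edit apart over their shared length, with no pair of opposite arms and at least 100 counts on the more abundant name in normoxia, 34 were listed. Of the 28 pairs with 1 substitution, the median ratio of the more to the less abundant name was 9.42. By their point values in normoxia, the pair of miR-27b-3p and miR-27a-3p had the widest ratio of the 34, and miR-23b-3p over miR-23a-3p was next, followed by miR-378d over miR-378b. The counts do not settle this order, the first place included, since miR-378d and miR-378b had 618 counts and 3 counts in normoxia and 885 and 0 in hypoxia. At the other end stood miR-376a-3p and miR-376b, with equal counts in normoxia and a difference at base 19 as well, let-7f-5p and let-7a-5p, with 18596 and 18579 counts, and miR-365b-3p and miR-365a-3p. The last are identical in sequence and had 9114 and 9093 counts in normoxia. The 11 pairs that differ at base 17 or later, which include both member pairs, had a median ratio of 11.2.

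**Figure D2:**
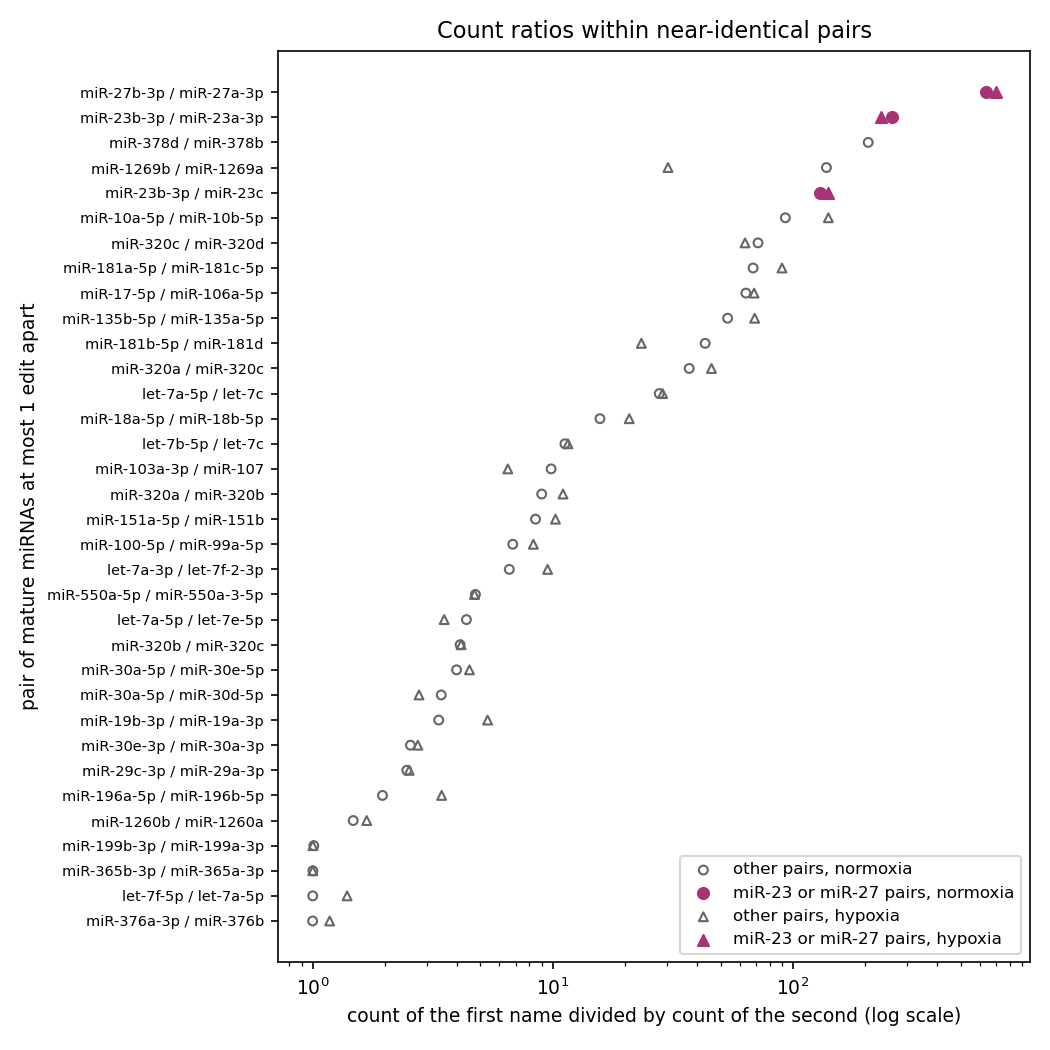
Ratio of the more to the less abundant name (log scale) in each of the 34 pairs of mature miRNAs at most 1 edit apart, circles for normoxia and triangles for hypoxia (miR-378b had no counts in hypoxia, so its triangle is missing). The pairs of miR-27b-3p with miR-27a-3p (638 in normoxia) and of miR-23b-3p with miR-23a-3p (258) lie at the top.

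In 6 of these pairs the other arms of both hairpins, each from a single hairpin, were listed with at least 100 counts on 1 of them, a comparison chosen after the values were seen. The gap between the log2 ratio on the near-identical arm and that on the other arm was 7.88 for miR-27, the largest of the 6 in size, against a median size of 3.34. The pairs of miR-30a and miR-30e entered with both arms. The limit of 100 counts left out the pair of miR-23b-3p and miR-23a-3p, whose other arms had 96 counts and 1 count and whose gap was 1.42.

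miR-23c, which has the miR-23 seed and comes from a hairpin on the X chromosome, had 762 counts in normoxia and 1677 in hypoxia, 1.98-fold (1.75 to 2.25) and 1.67-fold (1.54 to 1.81) above miR-23a-3p. Its first difference from miR-23b-3p is at base 14, the only substitution over 21 shared bases, and miR-23b-3p had 98921 counts in normoxia. How reads with a mismatch were assigned was not tested, so the counts of miR-23c and miR-23a-3p are uncertain as separate measurements. The seed UCACAUU was carried by 4 listed miRNAs (miR-23b-3p, miR-23c, miR-23a-3p and miR-130a-5p), with 22172 CPM in normoxia and 27634 CPM in hypoxia in all, of which miR-23b-3p gave 98.8% in both. The seed UCACAGU was carried by the miR-27 guides alone among the listed miRNAs, with 8497 and 7895 CPM. The seed GGCUCAG was carried by miR-24-3p alone.

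Both miR-24 hairpins differed from the others in that their 5p arms had counts of the same order as the shared 3p guide. The 5p arms together had 1134 counts against 477 for miR-24-3p in normoxia, 2.38-fold (2.13 to 2.65), and 2526 against 1171 in hypoxia, 2.16-fold (2.01 to 2.31). Of the counts on miR-24-1-5p and miR-24-3p, the 5p arm took 47.8% (44.5% to 51.1%) in normoxia and 40.8% (38.6% to 43.0%) in hypoxia, and for miR-24-2-5p 59.4% (56.5% to 62.2%) and 59.5% (57.7% to 61.3%). All of miR-24-3p was set against each hairpin, since the counts cannot be divided between them. miR-24-3p was 207-fold (190 to 227) below miR-23b-3p in normoxia and 201-fold (189 to 213) below it in hypoxia. Of the listed names, 60 are given by more than 1 RefSeq hairpin, and miR-24-3p ranked 21 of these. The 10 highest of them, led by miR-19b-3p (47168 counts, named after its value was seen) and miR-92a-3p (45665 counts), had more than 10000 counts in normoxia. How the counting treated reads that fit several hairpins was not tested.

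In the other hairpins the listed counts lay mostly on a single arm. The arms of the miR-27 hairpins are shown on their precursors, in RefSeq sequence with the arms in capitals,

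MIR27B: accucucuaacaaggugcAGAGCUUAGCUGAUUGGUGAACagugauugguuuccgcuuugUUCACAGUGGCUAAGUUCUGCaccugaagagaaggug

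MIR27A: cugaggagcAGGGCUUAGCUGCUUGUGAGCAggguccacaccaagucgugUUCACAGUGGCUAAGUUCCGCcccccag

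where the 3p arms differ by U19C only. For MIR27B the 5p arm took 5.51% of the counts on both arms in normoxia (5.29% to 5.74%) and 7.67% in hypoxia (7.48% to 7.86%). For MIR27A it took 93.2% (91.3% to 94.8%) and 96.0% (95.1% to 96.7%), so the listed counts of this hairpin lay almost wholly on the arm that is not the known guide. This share rests on the 60 and 97 counts listed for miR-27a-3p, which are uncertain as a measurement separate from miR-27b-3p. MIR23B gave 0.0970% (0.0785% to 0.118%) and 0.207% (0.189% to 0.226%) on its 5p arm, and MIR23A 0.260% (0.00658% to 1.44%) and 0.985% (0.473% to 1.80%). Among 125 hairpins with both arms listed and at least 100 counts on them in normoxia, 85 had under 10% of their counts on the minor arm, 54 of them with the 5p arm as the major arm and 31 with the 3p arm. Only 7 of the 125 lay between 40% and 60% on the 5p arm, and MIR24-1 and MIR24-2 were 2 of these with all of miR-24-3p set against each. With miR-24-3p divided evenly between its hairpins, their 5p shares in normoxia were 64.6% and 74.5%, outside this band.

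**Figure D3:**
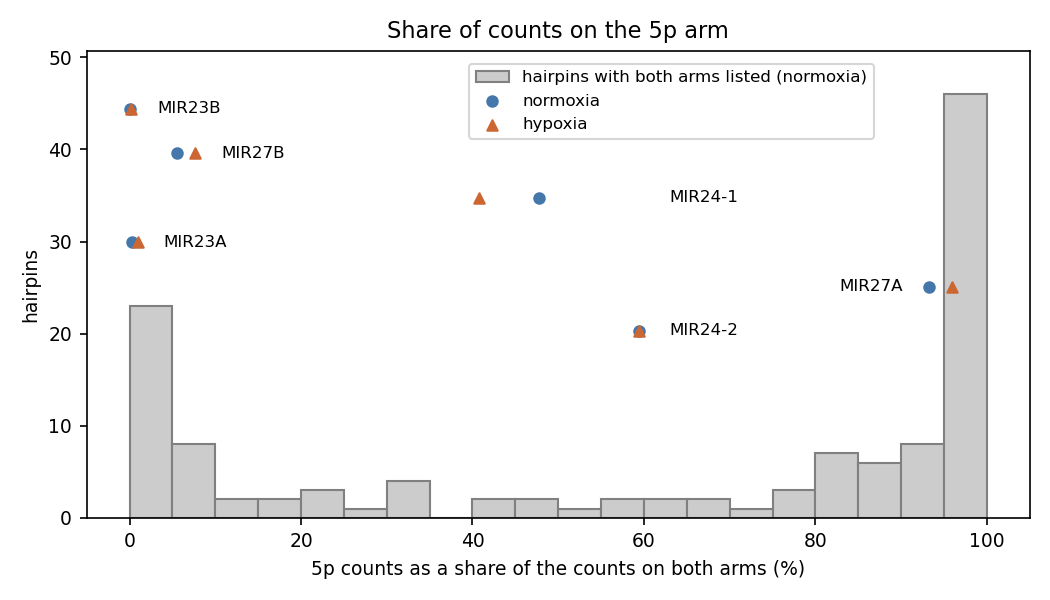
Share of the counts on both arms that fell on the 5p arm, in percent, for the 6 hairpins (circles for normoxia, triangles for hypoxia, placed at arbitrary heights) over a histogram of 125 hairpins in normoxia. MIR27A lies at the opposite end from MIR27B, MIR23A and MIR23B, and the MIR24 hairpins, each drawn with all of miR-24-3p, lie in the sparse middle, which they leave (64.6% and 74.5% in normoxia) when miR-24-3p is divided evenly. The place of MIR27A rests on 3p counts that are uncertain as a measurement separate from miR-27b-3p.

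Between the conditions, miR-23b-5p was the member past the expression filter with the largest difference. Log2 ratios of single miRNAs are those of the hypoxia to the normoxia CPM after a prior count of 2 was added, with intervals from the counts without it. A miRNA was counted as past the rule of size when the ratio reached 0.9 either way with a mean log2 CPM above 3. Of the 10 members, 9 passed the expression filter. miR-23a-5p was too low, and its CPM ratio of 5.25, from 1 count and 10 counts, had a counting interval of 0.747 to 228 that leaves its direction unknown. Of these 9, 1 was past the rule in the higher direction and 0 in the lower, against 3.54% and 3.24% of the 339 miRNAs past the filter (12 higher and 11 lower; 8 and 15 under TMM, 5 and 18 when the 10 most abundant miRNAs of either library were kept out of the totals). The median log2 ratio was 0.37 over the 9 members and 0.08 over the 339 miRNAs, whose SD was 0.51 and upper quartile 0.38, and 6 of the 9 had a ratio above 0, against 59.6% of the 339. Under the other scalings, 138 to 173 of the 339 had a ratio above 0, while the signs of the 9 members did not change. TMM scaling moved the median of the 339 by -0.11, and leaving the 10 most abundant out of the totals moved it by -0.19, so each ratio is to be read against the median of the same scaling.

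The counts of miR-23b-5p were 96 under normoxia against 486 under hypoxia, which gives 1.40 as the log2 ratio (1.09 to 1.74). By point value this was the second highest ratio of the 339 miRNAs, after miR-210, the best known miRNA of the response to low oxygen, with 4307 and 22849 counts and a ratio of 1.48 (1.43 to 1.52). The interval of miR-23b-5p holds that of miR-210, so the counts do not settle its rank. The opposite arm of MIR23B, miR-23b-3p, had a log2 ratio of 0.32 (0.31 to 0.33). The log2 ratio of 5p over 3p counts of MIR23B was thus higher in hypoxia by 1.09 (0.77 to 1.42), which does not depend on the scaling. With the prior count added, the difference for MIR23B was 1.08. Among 57 hairpins with both arms past the filter and each arm from a single hairpin, its median size on that basis was 0.43, and it was as large as for MIR23B in 3 others.

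The miR-27 guides and their 5p arms differed in direction. miR-27b-3p had a log2 ratio of -0.11 (-0.12 to -0.09), and miR-27a-3p of -0.23 (-0.72 to 0.25), whose interval holds 0. Their 5p arms had ratios above 0, with 0.40 (0.33 to 0.48) for miR-27b-5p and 0.56 (0.44 to 0.68) for miR-27a-5p. The 5p arm thus took a larger share in hypoxia in both hairpins, by 0.51 (0.44 to 0.58) on the log2 scale of 5p over 3p counts for MIR27B and by 0.80 (0.29 to 1.29) for MIR27A. With the prior count added (0.51 and 0.79), differences as large occurred in 24 and 11 of the other hairpins among the 57.

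miR-23a-3p had a log2 ratio of 0.46 (0.29 to 0.63), close to that of miR-23b-3p. The ratio of miR-23b-3p to miR-23a-3p changed between the libraries by -0.14 (-0.31 to 0.03) and that of miR-27b-3p to miR-27a-3p by 0.13 (-0.36 to 0.61), both with intervals that hold 0. For the summed 3p arms of miR-23 and miR-27, the ratio of chromosome 9 to chromosome 19 changed by -0.17 (-0.33 to -0.01). This value lies outside the changes of both pairs it sums and is no measure of a shift between paralogs, since miR-27 gave 38301 of 137222 counts on chromosome 9 but 60 of 444 on chromosome 19 in normoxia. The ratio of miR-27b-5p to miR-27a-5p changed by -0.16 (-0.29 to -0.02), an interval below 0. miR-24-3p had a log2 ratio of 0.37 (0.21 to 0.52), miR-24-2-5p of 0.37 (0.24 to 0.50) and miR-24-1-5p of -0.04 (-0.21 to 0.13). The ratio of miR-24-2-5p to miR-24-1-5p was higher in hypoxia by 0.41 (0.20 to 0.63) on the log2 scale. Summed over their 5p arms, the log2 ratio was 0.39 (0.33 to 0.46) for the chromosome 9 cluster and 0.48 (0.39 to 0.56) for the chromosome 19 cluster, and the ratio between the clusters changed by -0.08 (-0.19 to 0.02).

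Between arms of different hairpins of 1 cluster, 3 ratios were computed without miR-24-3p, and other such pairs were not compared. Taken with the more abundant arm first, these ratios were higher in hypoxia, a direction that depends on which arm is put first. miR-23b-3p exceeded miR-27b-3p 2.58-fold (2.55 to 2.61) in normoxia and 3.46-fold (3.43 to 3.49) in hypoxia, a change of 0.42 (0.40 to 0.44) on the log2 scale. On the 5p side of the same cluster, miR-27b-5p exceeded miR-24-1-5p 5.13-fold (4.62 to 5.69) and 6.98-fold (6.48 to 7.52), a change of 0.45 (0.26 to 0.63). In the chromosome 19 cluster, miR-27a-5p exceeded miR-24-2-5p 1.18-fold (1.07 to 1.31) and 1.34-fold (1.26 to 1.43), a change of 0.19 (0.01 to 0.36). The ratio of miR-23b-3p to miR-24-3p, whose counts cannot be divided between the clusters, changed by -0.05 (-0.21 to 0.11), an interval that holds 0. The median size of the difference between log2 ratios was 0.42 over the 317 pairs of miRNAs past the filter that lie within 10 kb of each other, pairs of the members and opposite arms of the same hairpin included. All intervals cover counting alone, and the difference between cultures was not measured.

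**Figure D4:**
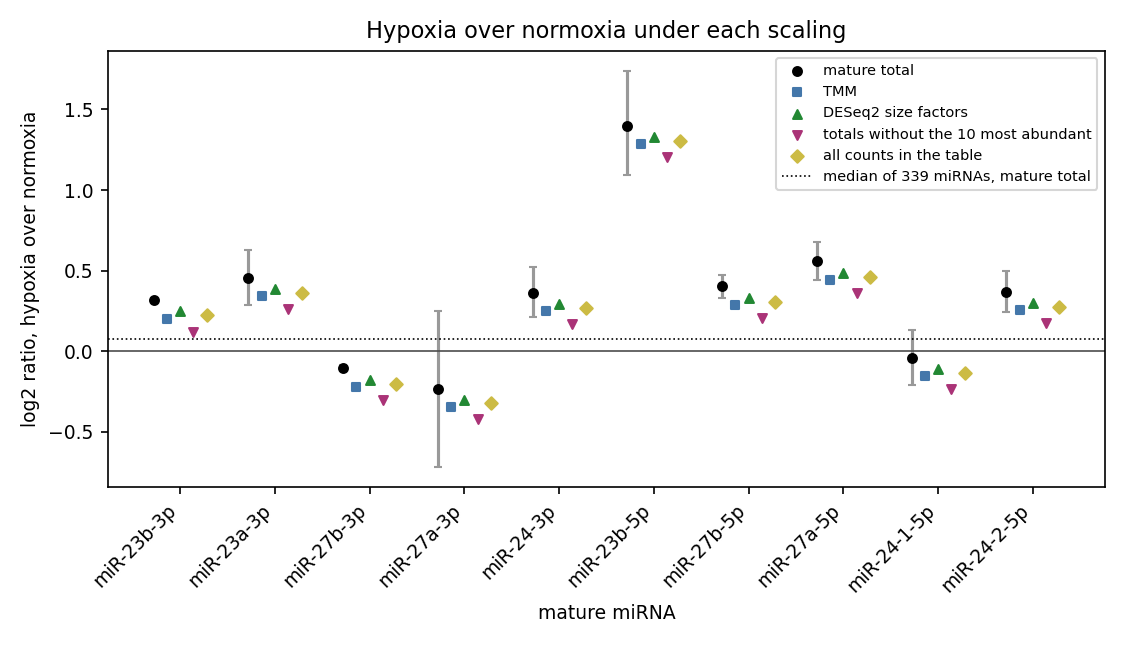
Log2 ratio of hypoxia over normoxia for the 10 arms past the expression filter under each scaling named in the legend, with 95% counting intervals on the values scaled to mature totals. miR-23b-5p lies highest at 1.40, miR-27b-3p, miR-27a-3p and miR-24-1-5p lie below 0 under every scaling shown, and the others lie above 0.

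A list of 8 other miRNAs often studied at low oxygen (miR-210, miR-26a-5p, miR-26b-5p, miR-103a-3p, miR-107, miR-181a-5p, miR-181b-5p and miR-181c-5p) was set beside the members. All 8 passed the expression filter, 1 was past the rule of size in the higher direction (miR-210) and 0 in the lower, and their median log2 ratio was 0.12. miR-26a-5p (0.33, interval 0.31 to 0.35) and miR-181a-5p (0.32, 0.30 to 0.34) had ratios close to that of miR-23b-3p, and miR-103a-3p had the lowest at -0.84 (-0.93 to -0.76). miR-130a-5p, which carries the miR-23 seed, had 36 and 142 counts and a log2 ratio of 1.02 (0.51 to 1.62).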

How the data were processed

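Small RNA libraries of A549 cells were made with a ligation-based kit for SOLiD sequencing and amplified by PCR without molecular identifiers, 1 per condition. The deposited table gives unnormalized read counts for 5475 features as the authors made them, with positions on hg19 per the submitters' processing notes. The aligner and the counting of reads that fit several names are not given in the sources used here. Counts on the 859 mature miRNAs were scaled to their total (4514818 in normoxia, 8600160 in hypoxia). Log2 ratios of single miRNAs between libraries used a prior count of 2. Their intervals, the ratios of sums and the ratios within a library did not. Intervals at 95% are exact binomial for shares and ratios within a library and exact conditional for ratios between libraries. No test of the condition was made with 1 library each. The genes named were the 10 arms, miR-27a-5p, their rank neighbours and seed mates, the extremes of the near-identical pairs and a list of miRNAs studied at low oxygen. miR-19b-3p, miR-30a, miR-30e and the arms of MIR3074 fall outside this rule and were named after their values were seen. The members and lists were chosen with earlier results of these data known. Near-identical pairs may differ in length by up to 3 bases. Of the table's names, 687 matched RefSeq mature miRNAs, which were used for sequences and hairpins. Alternatives were TMM (edgeR version 4.0.16), size factors of DESeq2 version 1.42.0, other totals, a prior count of 0.5, thinning, and other filters and thresholds. R version 4.3.3 and Python version 3.11.15 with scipy version 1.17.1 were used. The calculation was tested on simulated data.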

Additional observations from a re-analysis of the deposited data

Results flagged for a closer look

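The table also lists features named for whole hairpins, which were matched to the clusters by Ensembl transcript ID and enter none of the comparisons of mature arms. They are given because each held more than the 3 counts that a count of 0 allows in at least 1 library, and there was no control library. The MIR23B hairpin had 182 counts in normoxia and 398 in hypoxia, and the MIR27B hairpin 65 and 94. On chromosome 19, the MIR24-2 hairpin had 13 and 23 counts, the MIR27A hairpin 8 and 17, and the MIR23A hairpin 2 (below that limit) and 5. The counts of the MIR23B and MIR27B hairpins were higher than those of their paralogs, as for the 3p arms, but the miR-27 hairpins were split far less unevenly than their 3p arms. No such feature was matched to MIR24-1. How reads were shared between a hairpin and its mature arms was not tested.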

How the results depend on the processing

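No paired analysis was possible because there is a single library in each condition, and so none could be left out either. The log2 ratio of the summed 10 members was 0.22 with mature totals, 0.10 with TMM, 0.15 with DESeq2 size factors, 0.12 with all counts in the table and 0.022 when the 10 most abundant miRNAs of either library, miR-23b-3p and miR-27b-3p among them, were kept out of the totals. With those last totals 5 miRNAs were higher and 18 lower by the rule of size. Without a filter on low counts the rule took all 859 miRNAs and found 113 higher and 64 lower, and with a threshold of 1 it found 8 higher and 6 lower. The signs of the log2 ratios of all 11 arms were kept under every other scaling, the prior count of 0.5 and thinning, with 0.12 to 0.32 for miR-23b-3p, -0.30 to -0.10 for miR-27b-3p and 1.2 to 1.46 for miR-23b-5p. With miR-24-3p divided evenly between its hairpins, the 5p share was 64.6% and 58.0% for MIR24-1 and 74.5% and 74.6% for MIR24-2. The members' share of counts was 2.20% and 2.39% of all counts in the table. It was 16.9% and 17.2% when the most abundant miRNAs other than the members were left out of the total. Depth limits miR-23a-5p, with 1 and 10 counts, a ratio of 5.25 with a counting interval of 0.747 to 228.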

Other observations

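MIR3074, which lies opposite MIR24-1, gave almost no counts. miR-3074-3p had 2 counts in the normoxia library and 3 in the hypoxia library, miR-3074-5p had 0 and 4, against 477 and 1171 for miR-24-3p.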
